A study of Mus musculus with 13 samples.

Results

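The amino acid transporters described here are the 39 genes of the solute carrier families Slc1a, Slc3a, Slc7a, Slc36a, Slc38a and Slc43a, out of 31528 genes in the table. The rule for a member was its name, a symbol that begins with 1 of these family names followed by digits. They were then sorted by the substrate each carrier is best known for. The classes are cationic amino acids (6 genes), branched-chain and large neutral amino acids (4), glutamine and small neutral amino acids (10), glutamate, aspartate and cystine (5), the glycoprotein heavy chains that partner Slc7 carriers (2), proton-coupled and lysosomal carriers (5) and carriers with another or an unsettled substrate (7).

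These carriers move amino acids across the plasma membrane or out of the lysosome. Several Slc7a light chains reach the cell surface only when bound to a heavy chain, 4F2hc (gene Slc3a2) or rBAT (Slc3a1), and then exchange 1 amino acid for another. Others work alone, such as the cationic carriers CAT1 and CAT3 (Slc7a1 and Slc7a3) and the sodium-driven Slc1a and Slc38a carriers. Leucine and arginine that enter the cell this way feed the amino acid sensors of mTORC1, a kinase complex that promotes growth, and leucine and arginine uptake by the mouse blastocyst is known to be needed for trophoblast outgrowth.

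RNA was sequenced from whole mouse blastocysts of mixed C57BL/6 and DBA2J background (B6D2F1) in 13 libraries of 6 groups. In embryonic diapause a blastocyst halts its development reversibly instead of implanting, and the series was set up to follow its induction by nutrient deprivation. The targeted OVX group (n = 2, embryonic day 5.5) was taken from mothers without ovaries and received guide RNAs to both Nprl2 and Tsc2, and its labelled genotype is a knockout of both. Nprl2 and Tsc2 encode brakes on mTORC1. The other 5 groups were wild type. OVX blastocysts (n = 2, day 5.5) also came from ovariectomised mothers, the hormonal route to diapause. Starvation blastocysts (n = 2, day 5.5) came from a starvation treatment. Reduced KSOM blastocysts (n = 3, day 5.5) were cultured in KSOM, a defined embryo medium, with less arginine, leucine, isoleucine, lysine, glucose and lactate. Depleted KSOM blastocysts (n = 2, day 5.5) were cultured in KSOM that lacked its protein and carbohydrate components. E4.5 blastocysts (n = 2, day 4.5) came from mothers on a normal diet. Every other group was a day older than E4.5, and no group was labelled as cultured in complete KSOM, so age, culture and treatment cannot be told apart in comparisons with E4.5.

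Total counts per library ran from 40678386 to 72125687. Summed markers of the 3 blastocyst lineages were present in all groups, but epiblast markers summed to 96.1 to 200 CPM (counts scaled by library totals) in targeted OVX, 88.9 to 168 CPM in OVX, 266 to 428 CPM in starvation, 103 to 168 CPM in reduced KSOM and 175 to 219 CPM in depleted KSOM, against 410 to 436 CPM in E4.5. Primitive endoderm markers summed to 55.3 to 57.6 CPM in targeted OVX, 34.7 to 88.9 CPM in OVX, 138 to 234 CPM in starvation, 46.8 to 79.9 CPM in reduced KSOM and 85.4 to 103 CPM in depleted KSOM, against 198 to 277 CPM in E4.5. Trophectoderm markers summed to 3296 to 5039 CPM in targeted OVX, 4734 to 12128 CPM in OVX, 6450 to 12830 CPM in starvation, 10155 to 20032 CPM in reduced KSOM and 7694 to 8732 CPM in depleted KSOM, against 6305 to 9633 CPM in E4.5. The trophectoderm regulator Hand1 was at 0 in starvation, reduced KSOM and depleted KSOM. In whole blastocysts, fewer cells of a type and less RNA per cell cannot be told apart. Transcripts of 9 neutrophil genes summed to 132 to 602 CPM in OVX and 1298 to 1794 CPM in reduced KSOM, and reached no more than 32.9 CPM elsewhere. Those of 13 skeletal muscle genes reached 1424 CPM in OVX replicate 1 and 1050 to 1448 CPM in reduced KSOM, against 131 to 493 CPM in the other libraries. An alternative fit modelled the muscle-bearing libraries (OVX replicate 1 and all of reduced KSOM) with their own term. Its fold changes are given only for the carriers called in OVX, Slc7a3 and Slc1a1. All reduced KSOM libraries carry the term, so the difference between the OVX replicates alone sets it. For OVX it therefore repeats leaving out replicate 1. The part of other cells in the transporter values was not tested. Mitochondrially encoded transcripts took 12.2% and 13.2% of counts in depleted KSOM and 2.05% to 7.40% in the other day 5.5 libraries, against 5.06% and 6.69% in E4.5. RNA of the targeted genes was still present, in CPM on the scale used for the tests. Tsc2 stood at 14.7 and 8.26 CPM in targeted OVX, against 23.3 and 14.1 CPM in OVX. Nprl2 stood at 13.9 and 28.6 CPM in targeted OVX, against 38.04 and 36.5 CPM in OVX. An RNA level does not show whether the guides cut.

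A few carriers made up most of the transporter RNA. Levels are compared between genes as FPKM (fragments scaled by exon length and library size, computed by the authors), and the mean over the 13 libraries was 93.4 FPKM for Slc3a2, which encodes the heavy chain 4F2hc, and 68.2 FPKM for Slc7a6, which encodes the cationic and neutral exchanger y+LAT2 that binds it. Slc38a4, a sodium-coupled carrier of neutral and cationic amino acids known as SNAT4 and imprinted in the mouse, followed at 31.4 FPKM. Slc1a1, the glutamate and aspartate carrier EAAT3, averaged 8.58 FPKM, Slc7a7, the y+LAT1 exchanger, 6.58 FPKM, Slc7a3 6.15 FPKM and Slc43a3, known as a purine nucleobase carrier, 5.75 FPKM. Slc3a2 and Slc7a6 together held between 49.4% (starvation replicate 2) and 71.9% (targeted OVX replicate 1) of the summed transporter FPKM.

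The remaining carriers were low. Among the 39 genes, 19 had a mean of 5 CPM or more, 4 lay between 1 and 5 CPM and 16 lay below 1 CPM, at 0.0129 to 0.531 CPM. The low genes included the glial glutamate carrier Slc1a2, the heavy chain Slc3a1, the proton-coupled carriers Slc36a2, Slc36a3 and Slc36a4 and the renal cystine light chain Slc7a9. The FPKM of the authors behaved as if computed over the merged exons of all isoforms, with an implied length 1.09 to 1.14 times the merged exon length over 36 members. Merged exons were up to 2.37 times as long as the longest transcript (Slc38a1), so the FPKM of genes with many isoforms understates their level per transcript.

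**Figure D1:**
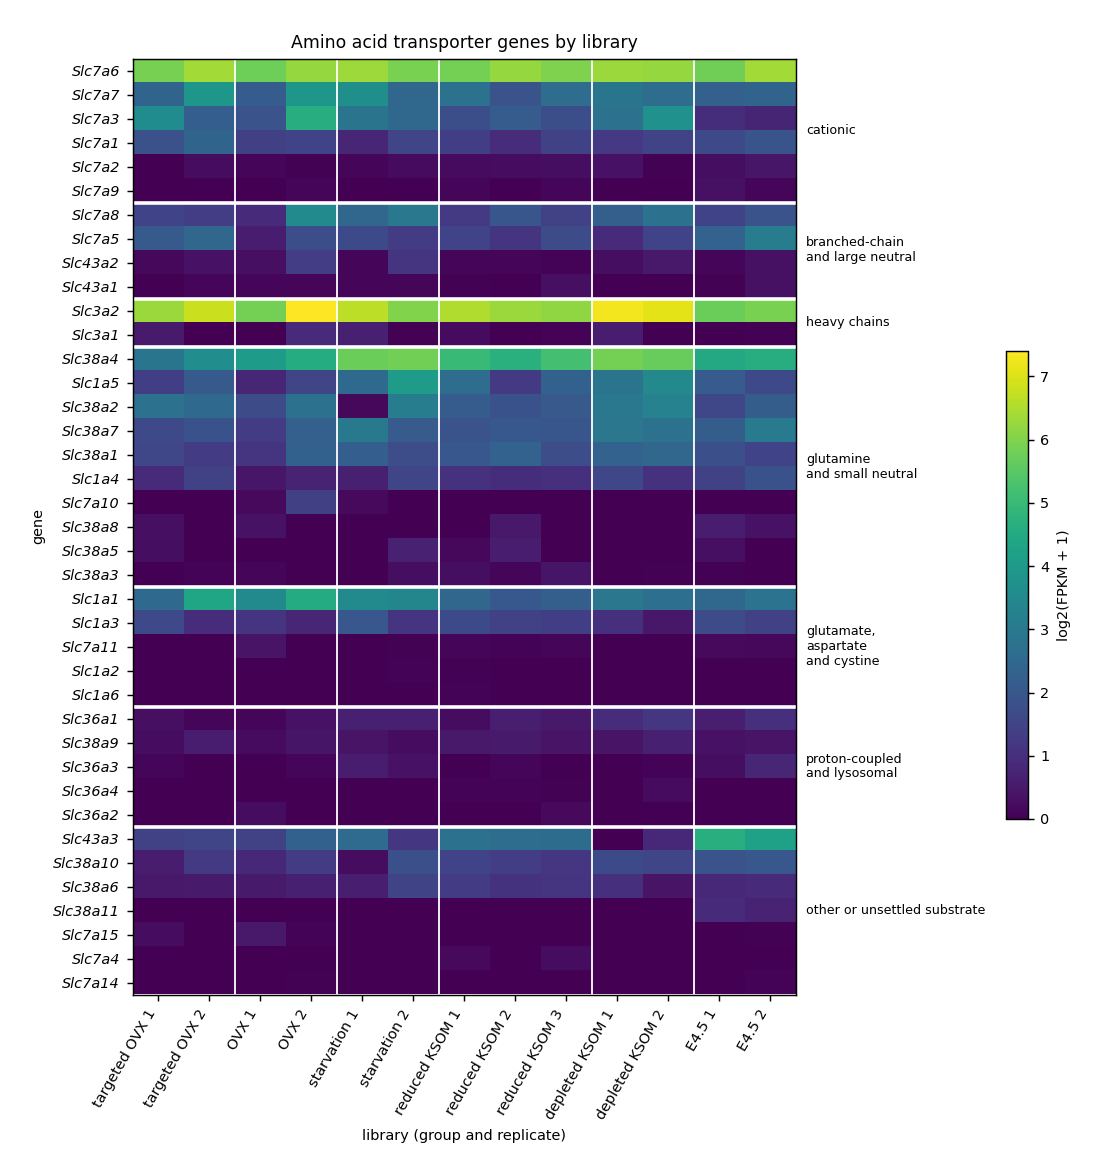
Level of each of the 39 transporter genes (rows, grouped by substrate class) in each of the 13 libraries (columns, grouped by condition), as log2 of FPKM plus 1 in colour. Slc7a6 and Slc3a2 are bright in every library, and Slc38a4 is brightest in starvation and depleted KSOM, at 49.9 to 57.4 FPKM.

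Class sums of FPKM also differed between libraries. The glutamine and small neutral class summed to 19.2 and 25.4 FPKM in targeted OVX, 22.5 and 40.9 FPKM in OVX, 68.4 and 87.7 FPKM in starvation, 46.7, 37.8 and 49.6 FPKM in reduced KSOM and 83.1 and 80.3 FPKM in depleted KSOM, against 35.2 and 41.1 FPKM in E4.5. Starvation and both KSOM groups overlapped E4.5 only in reduced KSOM replicate 2. Slc38a4 alone held 6.29 and 11.4 FPKM of the class in targeted OVX and 49.9 to 57.4 FPKM in starvation and depleted KSOM, against 21.3 and 23.3 FPKM in E4.5. The class of other or unsettled substrates summed to 2.77 to 9.28 FPKM in the day 5.5 libraries, against 28.9 and 22.4 FPKM in E4.5. Most of that gap was Slc43a3 alone, at 0.01 to 5.89 FPKM in the day 5.5 libraries, against 24.45 and 17.73 FPKM in E4.5. The cationic class stayed in a narrower range, between 61.0 FPKM (OVX replicate 1) and 113 FPKM (OVX replicate 2), and those extremes lay in the same group. Slc7a6 held 53.1 to 82.8 FPKM of it, so the sum says little about the other cationic carriers. The branched-chain class never exceeded 14.4 FPKM. These sums carry no test.

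Differences between groups were tested with the quasi-likelihood test of edgeR on the counts of all genes, and a call means that the p adjusted by Benjamini-Hochberg over the 21808 genes tested was under 0.05. Of the 39 carriers, 38 were tested. The exception was Slc1a6, a glutamate carrier of the cerebellum with counts in 1 library. Each comparison with E4.5 uses the same 2 E4.5 libraries, so the comparisons are not independent of each other. Fold changes below are on the log2 scale with their standard errors (SE), and CPM values are on the scale of trimmed means of M values (TMM). Groups of 2 or 3 libraries can lie apart by chance. The share of all genes whose groups do not overlap is not given, so a lack of overlap is description only.

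In targeted OVX against E4.5, 1 of 38 carriers was called, higher, where 2.66% of all genes were called (1.68% higher and 0.986% lower). In OVX 2 of 38 were called, both higher, against a background of 2.04% (1.56% higher and 0.481% lower). Starvation had 1 of 38, higher, where 2.21% of all genes were called (1.68% higher and 0.532% lower). Reduced KSOM had 0 of 38 by edgeR, where 1.13% of all genes were called (0.77% higher and 0.362% lower). There, 6 carriers had an unadjusted p under 0.05, as had 15.2% of all genes. DESeq2 called 4 carriers, all higher, and 10.2% of all genes, and limma on FPKM called 3, all lower, and 10.3% of all genes. Depleted KSOM had the most, with 4 of 38 called, 3 higher and 1 lower, against 5.51% of all genes (3.29% higher and 2.21% lower). This group also had the highest mitochondrial share, whose part in the calls was not tested. Calls were few in every comparison, and with so few, these shares do not set the carriers apart from other genes.

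The median log2 fold change of the tested carriers was 0.00 in targeted OVX, 0.26 in OVX, 0.22 in starvation, 0.37 in reduced KSOM and 0.00 in depleted KSOM, beside −0.16, 0, 0, 0.15 and −0.09 for all genes in the same order. A second set of medians put carriers without counts in a group at a floor of 3 counts per library. It left out carriers at or below the floor in both groups, which kept 33 to 37 carriers. Those 5 medians were 0.35, 0.35, 0.25, 0.50 and 0.18. The medians without a floor lay above that of all genes in each of the 5 comparisons. The floored medians cannot be set against all genes, for which no floor was used. No test was made of either set.

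**Figure D2:**
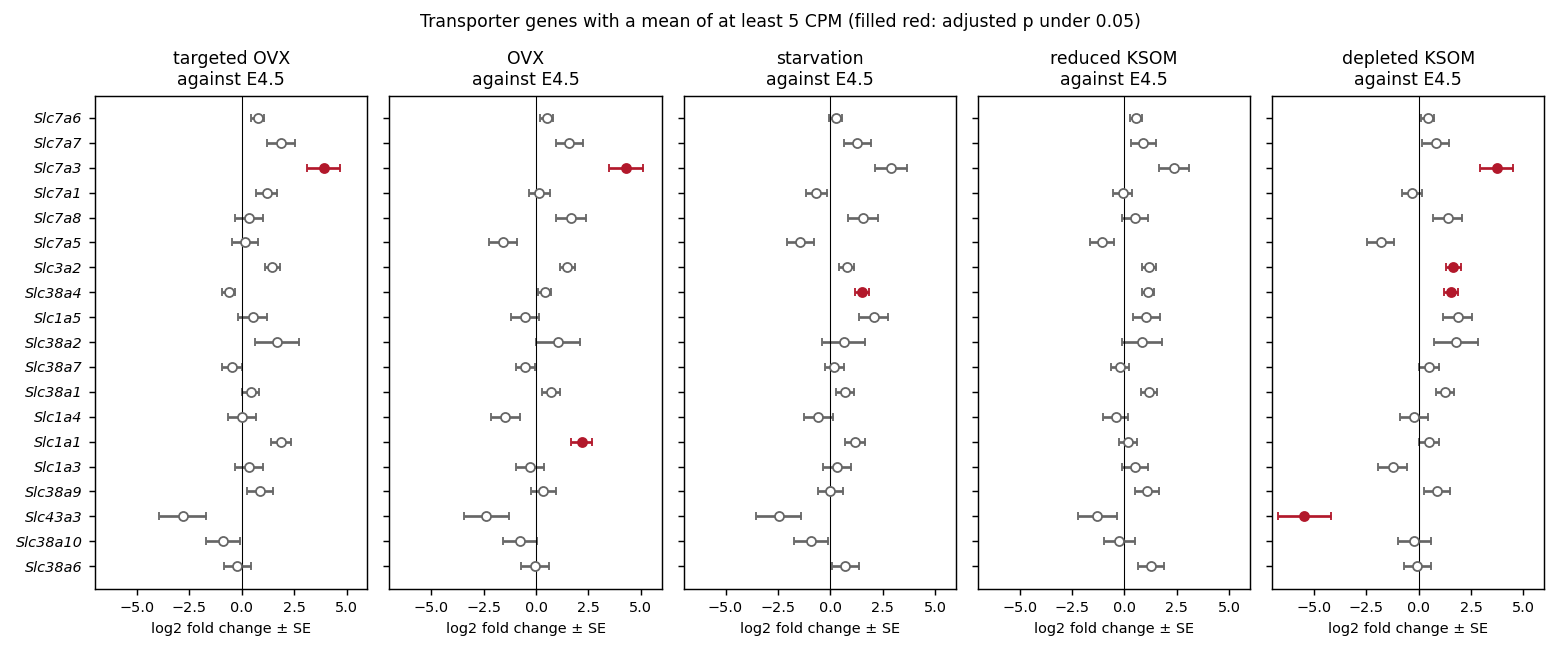
Log2 fold change against E4.5 (horizontal axis, with standard errors as bars) of the 19 transporter genes with a mean of at least 5 CPM, in 5 panels, 1 for each group. Filled red points are the 8 called values, among them Slc7a3 in 3 panels, and open grey points were not called.

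The heavy chain Slc3a2 (chromosome 19, 8706882 to 8723369, minus strand, GRCm38) was the most abundant carrier gene and was higher in every library of the day 5.5 groups than in either E4.5 library on the TMM scale. It had 392 and 493 CPM in targeted OVX, 325 and 577 CPM in OVX, 354 and 204 CPM in starvation, 422, 325 and 336 CPM in reduced KSOM and 526 and 482 CPM in depleted KSOM, against 155 and 167 CPM in E4.5. The increase was called in depleted KSOM, at 3.13-fold (log2 1.65 ± 0.36 SE, adjusted p = 0.022). It was 2.75-fold in targeted OVX (1.46 ± 0.36, adjusted p = 0.053), 2.80-fold in OVX (1.49 ± 0.36, adjusted p = 0.055), 2.24-fold in reduced KSOM (1.16 ± 0.34, adjusted p = 0.12) and 1.73-fold in starvation (0.79 ± 0.36, adjusted p = 0.29), and none of these passed. On the FPKM scale OVX replicate 1, at 56.8 FPKM, lay between the E4.5 libraries at 52.5 and 59.8 FPKM. The depleted KSOM call did not hold when E4.5 replicate 1 (adjusted p = 0.18) or 2 (0.12) was left out, without depleted KSOM replicate 1 (0.11) or replicate 2 (0.085), with library totals as scaling (0.12) and with limma on FPKM (0.079). The other heavy chain, Slc3a1, had a mean of 0.500 CPM, and it overlaps another gene on the opposite strand whose count was at least 578% of its own, so its counts are uncertain.

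**Figure D3:**
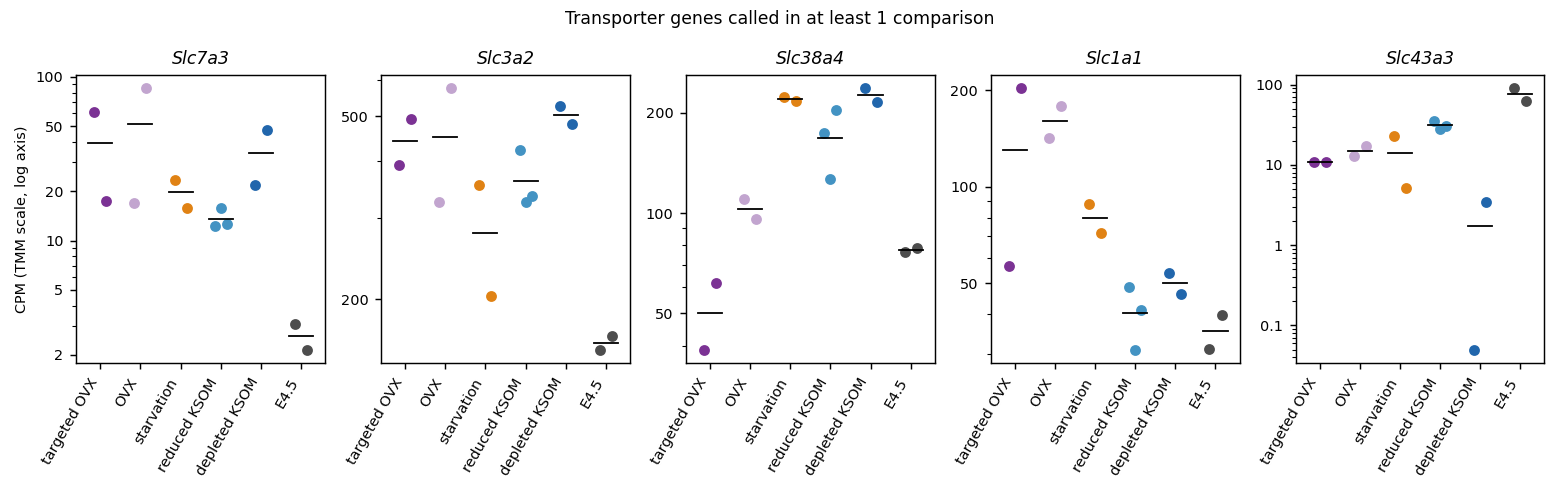
CPM on the TMM scale (log axis) of the 5 transporter genes called in at least 1 comparison, by group. Points are libraries and bars are group means, and in Slc7a3 and Slc3a2 both E4.5 libraries lie below all 11 others, while in Slc43a3 they lie above.

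Slc7a3, which encodes the cationic carrier CAT3 (chromosome X, 101079210 to 101085405, minus strand), showed the largest increase among the carriers called and was called in 3 comparisons. It had 61.2 and 17.5 CPM in targeted OVX, 16.9 and 86.0 CPM in OVX, 23.6 and 15.8 CPM in starvation, 12.3, 15.8 and 12.6 CPM in reduced KSOM and 21.9 and 47.1 CPM in depleted KSOM, against 3.11 and 2.14 CPM in E4.5. No library of the other groups came near the E4.5 pair, yet replicates within targeted OVX and within OVX lay several-fold apart. The gene rose 14.96-fold in targeted OVX (log2 3.90 ± 0.79 SE, adjusted p = 0.024), 19.6-fold in OVX (4.29 ± 0.80, adjusted p = 0.02) and 13.1-fold in depleted KSOM (3.71 ± 0.78, adjusted p = 0.017). Starvation (2.90 ± 0.75, adjusted p = 0.068) and reduced KSOM (2.37 ± 0.70, adjusted p = 0.13) pointed the same way without passing.

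The size of the Slc7a3 change rested on single libraries. In OVX it was 5.03 without replicate 1, the library that carried muscle transcripts, and 2.68 without replicate 2. Replicate 2 also had neutrophil transcripts, at 132 CPM, and the part of other cells in the change was not tested. With the term for muscle transcripts it was also 5.03, since in OVX that term repeats leaving out replicate 1 and is no separate check. In targeted OVX it was 2.73 without replicate 1 (adjusted p = 0.078) and 4.54 without replicate 2 (0.038), and in depleted KSOM 3.06 without replicate 2 (0.096). All 3 calls were lost without either E4.5 library (adjusted p of 0.11 to 0.23) and with limma on FPKM (0.066 to 0.11), where the log2 fold changes were 2.03 in targeted OVX, 2.38 in OVX and 2.39 in depleted KSOM. With only the groups compared in the fit, the call was also lost in targeted OVX (adjusted p = 0.074) and in OVX (0.13), and with library totals in targeted OVX (0.061). Slc7a3 is X-linked, and the embryos' sex is not stated. The 95% intervals of the 3 called log2 changes began at 2.20 in targeted OVX, 2.56 in OVX and 2.03 in depleted KSOM.

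The other cationic carriers were not called anywhere. Slc7a6 (chromosome 8, 106168857 to 106198706, plus strand), the most abundant of the class, had 387 and 471 CPM in targeted OVX, 394 and 328 CPM in OVX, 359 and 247 CPM in starvation, 346, 403 and 376 CPM in reduced KSOM and 343 and 343 CPM in depleted KSOM, against 210.0 and 299 CPM in E4.5. The groups lay close together, and the E4.5 libraries were below all libraries of every group but starvation. On the FPKM scale every group overlapped E4.5, at 54.8 and 82.8 FPKM. Its log2 fold changes against E4.5 ran from 0.25 ± 0.30 in starvation (adjusted p = 0.73) to 0.75 ± 0.31 in targeted OVX (adjusted p = 0.22). Slc7a7, the other y+LAT exchanger, had 20.5 and 58.6 CPM in targeted OVX, 18.7 and 45.9 CPM in OVX, 39.2 and 13.3 CPM in starvation, 25.8, 10.8 and 23.5 CPM in reduced KSOM and 20.3 and 17.6 CPM in depleted KSOM, against 10.5 and 11.0 CPM in E4.5. Every group but reduced KSOM lay above E4.5 on this scale, and none was called (adjusted p of 0.15 to 0.49). On the FPKM scale OVX replicate 1, at 3.47 FPKM, was below both E4.5 libraries, at 3.78 and 4.18 FPKM. Slc7a1, the broadly expressed arginine carrier CAT1, had 43.1 and 60.9 CPM in targeted OVX, against 20.1 and 25.5 CPM in E4.5 (adjusted p = 0.24), and it overlapped E4.5 in OVX, starvation and both KSOM groups. On the FPKM scale Slc7a1 in targeted OVX (2.58 and 4.19) overlapped E4.5 (2.08 and 2.80). Slc7a7 and Slc7a1 were singled out after their values were seen. Slc7a2 (mean 1.55 CPM) and Slc7a9 (0.121 CPM) were low throughout.

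No carrier of branched-chain and large neutral amino acids was called in any comparison. Slc7a8, the light chain LAT2 and the highest of the class at a mean of 3.53 FPKM, had 13.2 and 9.87 CPM in targeted OVX, 7.19 and 50.5 CPM in OVX, 22.4 and 31.2 CPM in starvation, 9.22, 17.8 and 11.2 CPM in reduced KSOM and 18.0 and 29.2 CPM in depleted KSOM, against 7.47 and 10.7 CPM in E4.5. Starvation and depleted KSOM lay above E4.5 without overlap (adjusted p = 0.28 in each), and the OVX replicates lay on either side of it.

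Slc7a5, the light chain LAT1, which pairs with 4F2hc to import leucine, had lower values than E4.5 in the 4 untargeted groups. On the TMM scale it did not in targeted OVX. It had 17.7 and 20.9 CPM in targeted OVX, 2.91 and 8.72 CPM in OVX, 8.03 and 4.97 CPM in starvation, 8.72, 5.18 and 11.2 CPM in reduced KSOM and 3.04 and 6.84 CPM in depleted KSOM, against 12.5 and 22.4 CPM in E4.5. The log2 fold changes against E4.5 were −1.58 ± 0.65 in OVX (adjusted p = 0.26), −1.42 ± 0.65 in starvation (0.29), −1.06 ± 0.57 in reduced KSOM (0.39) and −1.82 ± 0.65 in depleted KSOM (0.13), against 0.15 ± 0.63 in targeted OVX (0.98). In FPKM, Slc7a5 had 3.30 and 4.47 in targeted OVX, against 4.01 and 7.63 in E4.5. There targeted OVX replicate 1 lay below both E4.5 libraries, so the exception depends on the scale. No change of Slc7a5 was called, and the gene was singled out after its values were seen. Slc3a2, its partner, had higher values than E4.5 in the same groups. Slc43a1 (mean 0.487 CPM) and Slc43a2 (mean 3.70 CPM) complete the class.

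In the glutamine and small neutral class, Slc38a4 (chromosome 15, 96994820 to 97055956, minus strand) was called in 2 comparisons. It had 38.8 and 61.5 CPM in targeted OVX, 110.3 and 95.7 CPM in OVX, 224 and 217 CPM in starvation, 174, 126 and 205 CPM in reduced KSOM and 238 and 215 CPM in depleted KSOM, against 76.2 and 78.5 CPM in E4.5. Starvation and depleted KSOM stood highest with close replicates, and targeted OVX was the only group below E4.5 on this scale. In FPKM, OVX had 15.9 and 23.1, against 21.3 and 23.3 in E4.5, and so was not higher. Slc38a4 rose 2.85-fold in starvation (log2 1.51 ± 0.32 SE, adjusted p = 0.033) and 2.93-fold in depleted KSOM (1.55 ± 0.33, adjusted p = 0.017). Reduced KSOM was 2.18-fold higher without passing (1.12 ± 0.30, adjusted p = 0.10), OVX differed by 0.41 ± 0.32 (adjusted p = 0.54) and targeted OVX by −0.62 ± 0.32 (adjusted p = 0.33).

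Both Slc38a4 calls depended on which libraries entered. In starvation it did not hold when E4.5 replicate 1 (adjusted p = 0.25) or 2 (0.20), or the starvation replicate 2 (0.079), was left out, with library totals (0.12), with only the 2 groups in the fit (0.25) and with replicate number as a block (0.059). In depleted KSOM it did not hold without E4.5 replicate 1 (0.14) or 2 (0.11), depleted KSOM replicate 1 (0.10) or 2 (0.069), and with library totals (0.076). Its log2 fold change stayed between 1.23 and 1.62 in those fits.

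The other glutamine carriers were not called. Slc1a5, the neutral exchanger ASCT2, had 20.004 and 59.4 CPM in starvation and 25.1 and 43.3 CPM in depleted KSOM, against 11.8 and 7.01 CPM in E4.5 (adjusted p = 0.14 and 0.15). Slc38a1, the glutamine importer SNAT1, had 69.2, 83.0 and 55.5 CPM in reduced KSOM and 67.9 and 77.7 CPM in depleted KSOM, against 36.1 and 25.1 CPM in E4.5 (adjusted p = 0.18 and 0.11). In each of these 4 comparisons the groups did not overlap on the TMM scale, and both genes were singled out after their values were seen. In FPKM, Slc38a1 in reduced KSOM (3.04, 4.03 and 2.39) overlapped E4.5 (2.50 and 1.83). Slc38a2, the importer SNAT2, split within starvation, at 0.963 CPM in replicate 1 and 61.0 CPM in replicate 2, against 14.5 and 25.0 CPM in E4.5. Slc1a4 and Slc38a7 averaged 5.29 and 17.5 CPM, and Slc38a3, Slc38a5, Slc38a8 and Slc7a10 averaged below 1 CPM.

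**Figure D4:**
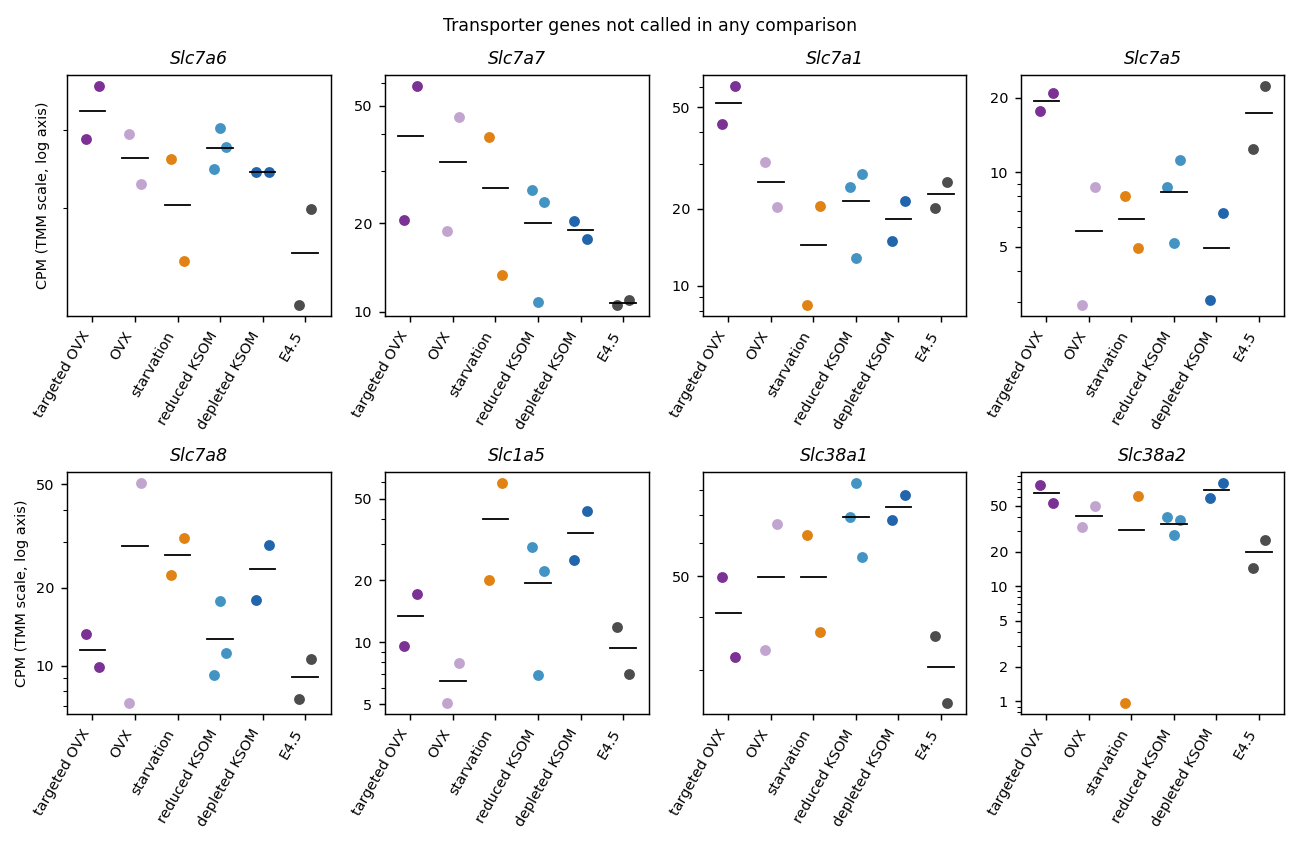
CPM on the TMM scale (log axis) of 8 transporter genes that no comparison called, by group, with points for libraries and bars for group means. Slc7a5 sits lowest in OVX and depleted KSOM, and starvation replicate 1 stands far below the rest in Slc38a2 at 0.963 CPM.

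Among the glutamate, aspartate and cystine carriers, Slc1a1 (chromosome 19, 28835049 to 28913960, plus strand) was called in OVX. It had 56.5 and 204 CPM in targeted OVX, 143 and 179 CPM in OVX, 88.3 and 71.9 CPM in starvation, 48.6, 31.0 and 41.4 CPM in reduced KSOM and 53.9 and 46.4 CPM in depleted KSOM, against 31.2 and 39.7 CPM in E4.5. Every group but reduced KSOM lay above E4.5 on the TMM scale, and the targeted OVX replicates lay far apart. On the FPKM scale targeted OVX replicate 1 (4.72 FPKM) and depleted KSOM replicate 2 (5.56 FPKM) lay between the E4.5 libraries (4.51 and 6.08 FPKM). The rise in OVX was 4.53-fold (log2 2.18 ± 0.49 SE, adjusted p = 0.043), and targeted OVX was 3.67-fold higher without passing (1.88 ± 0.49, adjusted p = 0.062). The OVX call was lost in 9 of 15 alternatives, among them leaving out 1 OVX library (adjusted p = 0.093 without replicate 1 and 0.10 without replicate 2) or 1 of the E4.5 libraries (0.28 and 0.25). Without OVX replicate 1 the log2 fold change was 2.33. The term for muscle transcripts gave the same value, since in OVX it repeats leaving out that library and is no separate check. Genes on the opposite strand overlap Slc1a1, with at most 2.15% of its count in any library. Slc1a3, the glial glutamate carrier, averaged 14.97 CPM, while Slc7a11, the cystine importer xCT, averaged 1.22 CPM and Slc1a2 0.133 CPM.

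Proton-coupled and lysosomal carriers were rare. Slc36a1, the lysosomal proton and amino acid carrier PAT1 and the highest of the class at a mean of 0.514 FPKM, had 1.903 and 0.507 CPM in targeted OVX, 0.882 and 1.56 CPM in OVX, 3.24 and 2.85 CPM in starvation, 1.34, 3.70 and 3.12 CPM in reduced KSOM and 4.91 and 7.14 CPM in depleted KSOM, against 2.62 and 4.59 CPM in E4.5. Both ovariectomy groups lay below E4.5 and depleted KSOM above it on the TMM scale, without a call in any comparison. In FPKM, depleted KSOM (0.90 and 1.25) overlapped E4.5 (0.55 and 1.03). Slc38a9, the lysosomal arginine sensor of the mTORC1 pathway, averaged 6.23 CPM and was also not called.

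The only carrier called lower was Slc43a3 (chromosome 2, 84936579 to 84958509, plus strand), in depleted KSOM. It had 10.9 and 10.9 CPM in targeted OVX, 12.7 and 17.1 CPM in OVX, 22.6 and 5.19 CPM in starvation, 34.8, 27.9 and 30.8 CPM in reduced KSOM and 0.0493 and 3.45 CPM in depleted KSOM, against 91.5 and 62.6 CPM in E4.5. Both E4.5 libraries lay above all 11 others, and depleted KSOM replicate 1 had 4 counts. Slc43a3 fell 44.0-fold in depleted KSOM (log2 −5.46 ± 1.26 SE, adjusted p = 0.026). Targeted OVX was 7.08-fold lower (−2.82 ± 1.11, adjusted p = 0.20), starvation 5.54-fold (−2.47 ± 1.09, adjusted p = 0.28), OVX 5.16-fold (−2.37 ± 1.09, adjusted p = 0.32) and reduced KSOM 2.47-fold (−1.31 ± 0.93, adjusted p = 0.53), and these did not pass. The depleted KSOM value was −4.48 without replicate 1 (adjusted p = 0.033) and −10.55 without replicate 2 (0.0061), so its size was set by how low each library was, and it was no longer called without E4.5 replicate 1 (0.10) or 2 (0.062) and with only the 2 groups in the fit (0.072).

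Slc38a11, a little studied gene of the Slc38 family, was another gene with RNA in E4.5 and little elsewhere, and was singled out after its values were seen. It had 0 counts in both libraries of targeted OVX, OVX, starvation and depleted KSOM and 0.129 CPM in 1 reduced KSOM library, against 3.12 and 2.23 CPM in E4.5. Against a floor of 3 counts per library it was at least 33.3-fold lower in targeted OVX, 39.6-fold in OVX, 69.6-fold in starvation and 69.1-fold in depleted KSOM. None of these was called (adjusted p of 0.13 to 0.21). Slc38a6 and Slc38a10 averaged 7.36 and 11.1 CPM, and Slc7a4, Slc7a14 and Slc7a15 averaged below 1 CPM.

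Sequence before start sites is shown for 2 of the called genes and for a carrier gene with a known amino acid response element. For this, 250 bases before the RefSeq start sites were read from GRCm38.p6. The motif TGATGNAA, the core of the C/EBP-ATF response elements bound by ATF4 and its partners, was searched on both strands, with no other motif searched. It was in 3.45% of 32851 promoters of all genes (1134) and in 3 of the 41 promoters (7.32%) of the 30 carriers that had a promoter entry. Those 3 belong to Slc7a11 and Slc7a7, and neither gene was called. The 3 called genes with an entry (Slc3a2, Slc1a1 and Slc38a4) had no match in these windows. The only Slc3a2 window lies inside the span of the gene (8706882 to 8723369), so sequence before its outermost start was not searched. Slc7a11 held the motif at 66 and 47 bases before its start, on opposite strands, as marked by capitals below. Slc3a2 lies at chr19:8713898-8714147 (minus strand), Slc1a1 at chr19:28834885-28835134 (plus strand) and Slc7a11 at chr3:50443614-50443863 (minus strand), each printed 5′ to 3′ in the direction of its gene.
Slc3a2: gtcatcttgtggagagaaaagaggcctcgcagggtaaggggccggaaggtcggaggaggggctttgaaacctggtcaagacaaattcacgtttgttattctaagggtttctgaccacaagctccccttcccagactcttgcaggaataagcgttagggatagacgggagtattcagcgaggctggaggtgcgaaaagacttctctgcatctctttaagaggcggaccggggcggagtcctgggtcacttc
Slc1a1: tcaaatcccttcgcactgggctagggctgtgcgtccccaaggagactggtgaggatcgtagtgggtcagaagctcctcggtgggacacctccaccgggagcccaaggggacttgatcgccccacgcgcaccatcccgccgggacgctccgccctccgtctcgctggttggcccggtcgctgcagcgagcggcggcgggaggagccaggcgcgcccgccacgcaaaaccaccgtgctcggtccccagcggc
Slc7a11: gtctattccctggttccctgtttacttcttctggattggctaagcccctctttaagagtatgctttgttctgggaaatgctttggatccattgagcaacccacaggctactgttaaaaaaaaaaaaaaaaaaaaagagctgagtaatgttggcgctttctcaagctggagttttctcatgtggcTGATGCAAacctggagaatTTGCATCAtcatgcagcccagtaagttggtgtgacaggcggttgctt

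Targeting Nprl2 and Tsc2 was compared directly with OVX. No group was labelled as given control guides, so delivery of guides and loss of these genes cannot be told apart here. None of the 38 carriers was called by edgeR, where 0.0367% of all genes (8 genes) were called. An unadjusted p under 0.05 was found for 4 carriers and for 10.9% of all genes. DESeq2 called 1 carrier, lower, and 5.30% of all genes, and limma on FPKM called 0 carriers and 0.243% of all genes. Slc7a5 had 17.7 and 20.9 CPM in targeted OVX, against 2.91 and 8.72 CPM in OVX, higher without overlap (log2 1.73 ± 0.65 SE, 95% interval 0.31 to 3.14, adjusted p = 0.37). Slc38a4 had 38.8 and 61.5 CPM in targeted OVX, against 110.3 and 95.7 CPM in OVX (−1.04 ± 0.32, interval −1.73 to −0.34, adjusted p = 0.27). The groups did not overlap there either. Slc3a2 differed by −0.03 (interval −0.80 to 0.74) and Slc7a3 by −0.39 (interval −1.902 to 1.13), so differences of several-fold in Slc7a3 are within its error. The median over the carriers was −0.22, beside −0.09 for all genes.

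Between the 2 culture media, no carrier was called by edgeR in reduced KSOM against depleted KSOM, where 5.79% of all genes were called (2.99% higher and 2.8% lower). An unadjusted p under 0.05 was found for 3 carriers and for 22.7% of all genes. DESeq2 called 4 carriers, all higher, and 19.5% of all genes, and limma on FPKM called 1 carrier, higher, and 9.14% of all genes. Slc43a3 came closest, at 34.8, 27.9 and 30.8 CPM in reduced KSOM, against 0.0493 and 3.45 CPM in depleted KSOM (17.8-fold higher, log2 4.15 ± 1.15 SE, adjusted p = 0.053). Slc7a3 was 2.54-fold lower (−1.34 ± 0.63, interval −2.71 to 0.02, adjusted p = 0.23), Slc3a2 1.40-fold lower (−0.48 ± 0.32, interval −1.18 to 0.22, adjusted p = 0.37) and Slc38a4 1.35-fold lower (−0.43 ± 0.29, interval −1.05 to 0.19, adjusted p = 0.37). For each of these 3 genes every reduced KSOM library was below both depleted KSOM libraries. They were named because they were called against E4.5, and how many of all genes separate in this way is not given. The reduced KSOM libraries also carried muscle and neutrophil transcripts, whose part was not tested. The median over the carriers was 0.10, beside 0.29 for all genes.

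Amino acid and peptide carriers of other families, from a list of related genes, included several called values. For this list and the enzyme lists below, values are from the edgeR fit of all 13 libraries only. Whether these calls hold under the alternatives, such as leaving out a library, is not given, so they may be no firmer than those of the carriers above. Of 23 tested among 30 such genes, 1 was called higher in targeted OVX, 2 in OVX, 3 in starvation, 0 in reduced KSOM and 4 in depleted KSOM, with none lower. Of all genes, 1.68%, 1.56%, 1.68%, 0.77% and 3.29% were called higher in the same order. Slc6a14, a broad neutral and cationic carrier, had 88.6 and 124 CPM in targeted OVX, 65.7 and 156 CPM in OVX, 59.0 and 248 CPM in starvation, 16.5, 14.9 and 21.8 CPM in reduced KSOM and 91.5 and 93.6 CPM in depleted KSOM, against 11.5 and 20.9 CPM in E4.5. It rose 6.55-fold in targeted OVX (adjusted p = 0.038), 6.85-fold in OVX (0.04), 9.47-fold in starvation (0.021) and 5.71-fold in depleted KSOM (0.033), and reduced KSOM overlapped E4.5. The peptide carrier Slc15a2 rose 3.97-fold in OVX (adjusted p = 0.026), 6.15-fold in starvation (0.0099) and 5.15-fold in depleted KSOM (0.0069). Slc6a6, the taurine carrier, rose 2.56-fold in starvation (adjusted p = 0.043) and 2.42-fold in depleted KSOM (0.033), and Ctns, the lysosomal cystine exporter, 10.9-fold in depleted KSOM (0.038). In reduced KSOM against depleted KSOM, Slc15a2 was 8.61-fold lower (adjusted p = 0.0027) and Slc6a14 5.23-fold lower (0.026). Reduced KSOM thus stood apart from the other day 5.5 groups in these 2 genes, as its 3 libraries lay below all others of day 5.5. Those libraries also carried neutrophil (1298 to 1794 CPM) and skeletal muscle transcripts (1050 to 1448 CPM), whose part was not tested. With the term for muscle-bearing libraries, 0% of all genes were called in reduced KSOM against depleted KSOM. The OVX replicates alone set that term, so it cannot decide the question.

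Of the 24 enzyme genes of branched-chain, lysine and arginine use, 23 were tested. In the comparisons with E4.5, 1 was called in targeted OVX (lower), 3 in OVX (1 higher and 2 lower), 3 in starvation (all higher), 3 in reduced KSOM (1 higher and 2 lower) and 6 in depleted KSOM (5 higher and 1 lower). Calls over all genes were 2.66%, 2.04%, 2.21%, 1.13% and 5.51% in the same order. In a fit of only genes with a mean of at least 5 CPM, 18.3% were called in depleted KSOM. Whether this list differs from other genes was not tested. Odc1, which makes putrescine from the arginine product ornithine, had 181 and 123 CPM in targeted OVX, 75.7 and 133 CPM in OVX, 174 and 211 CPM in starvation, 109 to 133 CPM in reduced KSOM and 84.0 and 72.4 CPM in depleted KSOM, against 447 and 411 CPM in E4.5. It fell 2.82-fold in targeted OVX (adjusted p = 0.036), 4.12-fold in OVX (0.012), 3.50-fold in reduced KSOM (0.018) and 5.48-fold in depleted KSOM (0.0029). Bcat1, the cytosolic branched-chain aminotransferase, fell 4.86-fold in OVX (adjusted p = 0.031) and 4.14-fold in reduced KSOM (0.036).

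Other genes of this list were called higher, each in some comparisons only. Bcat2, the mitochondrial aminotransferase, rose 3.89-fold in starvation (adjusted p = 0.032) and 5.28-fold in depleted KSOM (0.0079), and was 3.07-fold lower in reduced KSOM than in depleted KSOM (0.027). Mccc2, a subunit of the carboxylase that acts on a leucine product, rose 3.61-fold in starvation (adjusted p = 0.043) and 4.49-fold in depleted KSOM (0.013). Bckdhb, of the branched-chain ketoacid dehydrogenase, rose 2.90-fold in starvation (adjusted p = 0.047). Dld, which that complex shares with others, rose 2.84-fold in depleted KSOM (adjusted p = 0.029) and was 2.50-fold lower in reduced KSOM than in depleted KSOM (0.033). Ivd, which oxidises a leucine product, rose 4.42-fold in reduced KSOM (adjusted p = 0.042). Nos1, a nitric oxide synthase that uses arginine, rose 4.76-fold in OVX (adjusted p = 0.029).

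**Figure D5:**
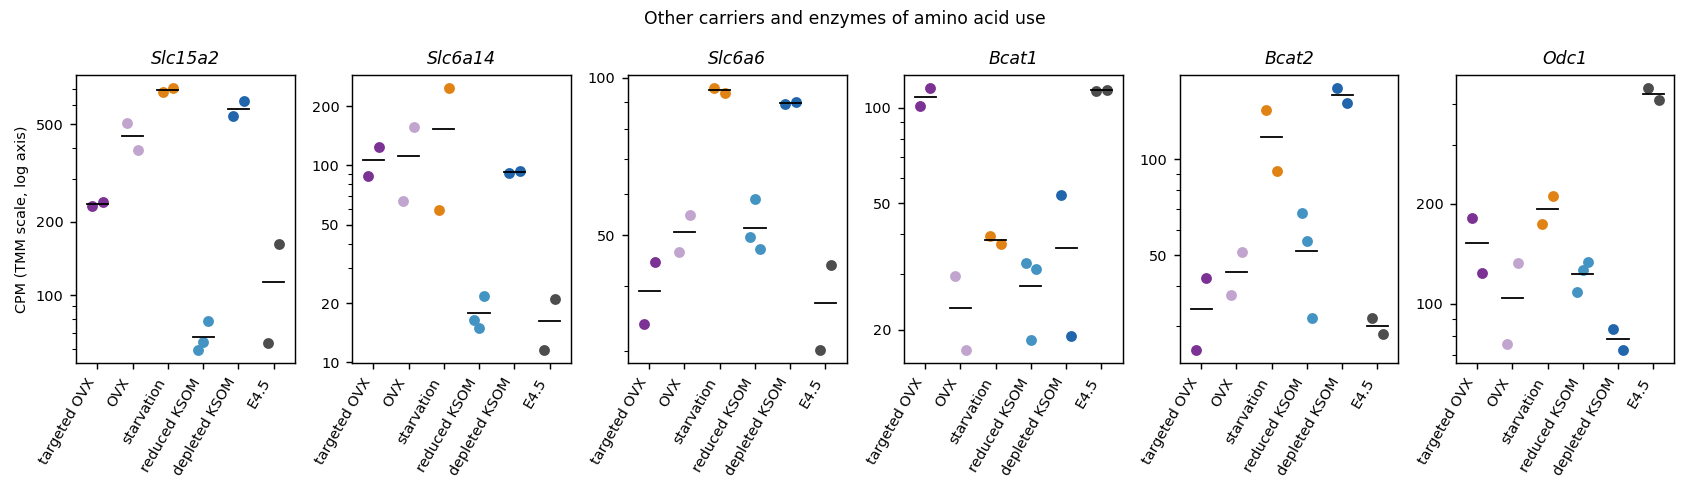
CPM on the TMM scale (log axis) of 3 carriers of other families and 3 enzyme genes, by group, with points for libraries and bars for group means. Slc15a2 and Slc6a14 overlap E4.5 in reduced KSOM, and Odc1 is highest in E4.5, at 447 and 411 CPM.

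Enzyme genes of glutamine, glutamate and asparagine use were described in the same way. Of 23 genes, 22 were tested, with 2 called in targeted OVX (1 higher and 1 lower), 1 in OVX (lower), 0 in starvation, 0 in reduced KSOM and 2 in depleted KSOM (both higher), beside the same shares of all genes. By edgeR, 3 genes in starvation and 4 in reduced KSOM had an unadjusted p under 0.05, as had 16.8% and 15.2% of all genes. Asns, which makes asparagine with glutamine as the donor, rose 3.76-fold in targeted OVX, at 379 and 449 CPM against 132 and 87.9 CPM in E4.5 (adjusted p = 0.041), and 3.51-fold in depleted KSOM (0.032). Gclc, the first enzyme of glutathione synthesis, rose 5.33-fold in depleted KSOM (adjusted p = 0.033) and was 5.42-fold lower in reduced KSOM than in depleted KSOM (0.022). Got2, the mitochondrial aspartate aminotransferase, fell 3.13-fold in targeted OVX (adjusted p = 0.039), and its cytosolic counterpart Got1 fell 3.17-fold in OVX (0.043).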

How the data were processed

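RNA of whole blastocysts was amplified as full-length cDNA with the SMART-Seq v4 kit, per the labels' protocols, which do not mention molecular identifiers or strand, so reads of a gene and of an antisense partner cannot be told apart. The deposited table holds estimated counts and FPKM values computed by the authors for 31528 genes on GRCm38. The submitters' processing notes name cutadapt 1.9, HISAT2 2.0.4 and StringTie 1.3.4d. The annotation and the tool that counted are not given in the sources used here. The estimated counts were whole numbers as deposited.

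Libraries were grouped by the labels. Columns were matched to the labels by name. For OVX replicate 2 the column name is a shorter form of the one in its label, and for starvation replicate 2 both the column and the name in its label end in 3. Genes were kept with filterByExpr (21808), scaled by TMM (factors 0.671 to 1.414) and tested with edgeR 4.0.16 (glmQLFit, glmQLFTest) in a single fit of the 13 libraries, 1 mean for each group, which left 7 residual degrees of freedom. The common biological coefficient of variation was 0.896. P-values were adjusted by Benjamini-Hochberg over all genes tested, with 0.05 as the threshold of a call. Standard errors are the absolute log2 fold change over the square root of F. The labels do not say whether replicates came from separate mothers or cultures, so the spread that enters p-values is that between these samples only and may be technical.

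Values in every library were given for carriers called in at least 1 of 7 comparisons and for the carrier with the highest mean FPKM of each class. From related lists up to 4 called genes per comparison were named. The members, classes and lists were chosen with earlier results of these data known. Promoters and start sites are from RefSeq (GRCm38.p6). The sequences of the encoded proteins were not used here.

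Alternatives were median-of-ratios factors, library totals, DESeq2 1.42.0, limma 3.58.1 on log2(FPKM + 1), no low-count filter, a minimum mean of 5 CPM, counts divided by 4, a gene length trend removed, a term for libraries with muscle transcripts, a block for the replicate number, a fit restricted to the groups compared, and each library left out in turn. Fold changes by limma are on the log2(FPKM + 1) scale, which understates the change of low genes. With 1 library left in a group, that library was assumed to vary like the other groups. R 4.3.3, Python 3.11.15 and matplotlib 3.10.9 were used.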

Additional observations from a re-analysis of the deposited data

How the results depend on the processing

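Of the 120 values of the 8 called fold changes under alternatives, 76 stayed called, 44 lost the call and 0 changed direction. All 8 were lost without either E4.5 library, where 0.00917% to 1.57% of all genes were called over the 5 comparisons with E4.5. Numbers of carriers called are given below with the share of all genes called in the same fit, since alternatives that called more carriers mostly called more of all genes. In targeted OVX against E4.5 (1 called) DESeq2 called 5 (15.4%), no filter 6 (5.20%), a length trend removed 3, all higher (5.498%), a minimum of 5 CPM 3, all higher (11.2%), limma 3, all lower (10.4%), the muscle term 2 (4.42%), only the groups compared 0 (0.115%) and library totals 0 (3.50%), and leaving out a library 0 to 1. In OVX (2, both higher) no filter called 4 (4.66%), library totals 1 (1.32%), only the groups compared 0 (0.0550%) and leaving out a library 0 to 2. There limma also called 2, but both lower and neither shared with those 2 (8.41%). In starvation (1) DESeq2 called 4 (12.9%), no filter 4 (4.67%), limma 3, of which 1 higher and 2 lower (8.25%), counts divided by 4 2 (2.69%), a length trend removed 2 (2.72%), a minimum of 5 CPM 2 (10.5%), the muscle term 2 (3.11%), only the groups compared 0 (0.00459%) and library totals 0 (1.05%), and leaving out a library 0 to 2, where the 2 called without starvation replicate 2 were both lower. In reduced KSOM (0) DESeq2 called 4, all higher (10.2%), only the groups compared 6 (10.9%), limma 3, all lower (10.3%), a minimum of 5 CPM 1 (5.37%), no filter 1 (3.89%) and leaving out a library 0. In depleted KSOM (4, of which 3 higher) DESeq2 called 9 (19.1%), only the groups compared 7 (10.6%), library totals 2 (4.49%) and leaving out a library 0 to 2, while limma called 4, of which 1 higher and 3 lower (12.2%). Targeted OVX against OVX (0) gave 1 with DESeq2 (5.30%) and 0 with a library left out. Reduced KSOM against depleted KSOM (0) gave 4 with DESeq2 (19.5%), 3 with only the groups compared (19.1%), 3 with no filter (8.41%), 1 with counts divided by 4 (7.21%), 1 with limma (9.14%), 1 with a minimum of 5 CPM (19.6%) and 0 to 1 with a library left out. The cause was not tested. Deviations of libraries with the same replicate number correlated at −0.03 to 0.05 between the groups compared, so the numbers gave no sign of a pairing. Whether libraries shared a mother, batch or run was not tested. With a replicate block, 1 carrier was called in OVX and 0 in starvation, and the other 5 counts did not change by over 1.5 times. With library totals, the centre of all genes relative to E4.5 (median log2 fold change) moved to −0.92 in targeted OVX, −0.53 in OVX, −0.17 in starvation, −0.50 in reduced KSOM and −0.41 in depleted KSOM. Of low nonzero counts, 27.2% to 34.6% were multiples of 4. The 16 carriers with a mean under 1 CPM rest on few counts.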

Other observations

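Single libraries stood apart in several carriers that no comparison called. Starvation replicate 1 had 68 counts of Slc38a2 and starvation replicate 2 had 5307, and Slc38a10 had 1.22 and 14.6 CPM in the same 2 libraries. OVX replicate 2 had 50.5 CPM of Slc7a8 and OVX replicate 1 had 7.19 CPM, while Slc7a11 went the other way, at 0.272 CPM in replicate 2 and 7.09 CPM in replicate 1. Slc7a10, a neutral carrier, had 3.41 CPM in OVX replicate 2 and at most 0.458 CPM in any other library, and it overlaps a gene on the opposite strand. Slc43a2 had 14.8 CPM in OVX replicate 2 and 10.5 CPM in starvation replicate 2, and at most 4.39 CPM elsewhere. Of the 39 carrier genes, 10 overlap another gene of the table, and among the 5 called genes only Slc1a1 does.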
